A study of Mus musculus with 12 samples.

Results

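The 33 genes described here encode subunits and partners of the Polycomb repressive complexes PRC1 and PRC2 and of the Polycomb deubiquitinase PR-DUB. They were taken by name, not by their values, from an RNA-seq table of 25965 gene rows in mouse embryonic stem (ES) cells that were differentiated with the gene Smchd1 either deleted or floxed and intact. All 33 were found, and all 33 were among the 14063 genes that had enough reads to be tested. By role they are 6 genes of the PRC2 core (Ezh1, Ezh2, Eed, Suz12, Rbbp4 and Rbbp7) and 5 of its accessory proteins (Jarid2, Mtf2, Phf1, Phf19 and Aebp2). Of PRC1 they are 2 ubiquitin ligases (Ring1 and Rnf2), 6 PCGF subunits (Pcgf1, Pcgf2, Pcgf3, Bmi1, Pcgf5 and Pcgf6), 8 subunits of the canonical complex (Cbx2, Cbx6, Cbx7, Cbx8, Phc1, Phc2, Phc3 and Scmh1) and 4 of variant complexes (Kdm2b, Rybp, Yaf2 and L3mbtl2). The last 2, Asxl1 and Bap1, form PR-DUB.

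Polycomb complexes keep developmental genes silent in cells where they are not needed. PRC2 methylates the tail of histone H3 through Ezh2 or Ezh1, and PRC1 attaches ubiquitin to another core histone through Rnf2 or Ring1. The PCGF subunit sets which form of PRC1 is built: canonical forms carry a CBX protein that reads the mark of PRC2, while variant forms carry Rybp or Yaf2 in its place. Subunit choice is known to shift as ES cells differentiate: Cbx7 gives way to other CBX proteins, and Ezh2 declines as cells stop dividing. Smchd1 is a chromatin protein needed for lasting silencing on the inactive X chromosome and at some imprinted and clustered genes. In mouse cells its recruitment to the inactive X is known to depend on PRC1 forms that hold Pcgf3 or Pcgf5.

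The cells were C57BL/6 ES lines labelled male, each derived from a single blastocyst in medium with 2 inhibitors and LIF. Each line was split. The Smchd1 del/del part received Cre recombinase and a puromycin resistance gene by retrovirus and was then selected with puromycin, whereas the Smchd1 fl/fl part was neither transduced nor selected. Deletion therefore cannot be told apart from transduction and selection in any comparison of genotypes. Both parts were weaned into serum with LIF and steered towards neuromesodermal progenitors, bipotent cells of the tail end of the embryo, by removing LIF and adding Fgf2, then a Gsk3 inhibitor after 2 days, then Gdf11 after another 4 days. Libraries were made at a first sampling of undifferentiated ES cells, called day 1 in the labels and day 0 in the protocol, and at day 5 and day 8. Each of the 6 groups (del/del and fl/fl at each day) held 2 libraries, one from line 1 and one from line 3, and pairs of values below are given as line 1, then line 3.

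The line 1 libraries, although labelled male, held only 2 to 42 reads over 4 Y-linked genes, versus 240 to 2652 in the line 3 libraries, in both genotypes alike. Since each group has 1 library of each line, this does not separate the genotypes, and values are given by line. Reads in genes were 1.51 to 8.67 M (mega) per library, lowest in the line 3 fl/fl library of day 8, whose column is named as a merge. Smchd1 itself was lower in del/del than in fl/fl libraries by 2.84 ± 0.24 on the log2 scale at day 1 (SE; limma, adjusted p = 0.00211), by 2.07 ± 0.24 at day 5 (0.048) and by 2.42 ± 0.24 at day 8 (0.00252). With the line as a block the day 5 difference was not called (limma, adjusted p = 0.152, range 0.00501 to 0.996 over the alternatives). Smchd1 did not keep its day 1 call under every alternative either, but kept that of day 8 under all. Its reads were 197 and 271 versus 1212 and 1495 at day 1, 102 and 104 versus 366 and 919 (day 5), and 161 and 140 versus 728 and 111 (day 8), so that in line 3 at day 8 the shallow fl/fl library had fewer Smchd1 reads than the del/del one. Levels below are relative RPM: reads per M reads, rescaled so that the median gene is equal across libraries. Differences are log2 differences on that scale with their SE from a limma fit over all 12 libraries, and "higher", "rose", "lower" or "fell" mark a Benjamini-Hochberg adjusted p below 0.05 over all 14063 genes.

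Differentiation moved many Polycomb genes, while the genotypes differed in a few of them, all at day 8. Between day 1 and day 5, 3 of the 33 genes rose and 13 fell in del/del cells, and 5 rose and 13 fell in fl/fl cells. Over all tested genes 20.9% rose and 18.7% fell in del/del cells, and 22.8% rose and 18.3% fell in fl/fl cells. Against that background, Polycomb genes fell more often and rose less often, and the median of the 33 was -0.32 in del/del and -0.35 in fl/fl cells, versus 0.01 and -0.05 over all genes. These are counts and medians with no test of the list. Between day 5 and day 8, 2 rose and 6 fell in each genotype, with a background of 7.31% rising and 4.57% falling in del/del and 3.022% and 3.584% in fl/fl cells. In bulk RNA, fewer cells that express a gene and less of its RNA per cell cannot be told apart.

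Between genotypes, no Polycomb gene was called at day 1 or day 5, where 0.00711% of all genes were called at either day. At day 8, 2 were higher in del/del cells (Ezh2 and Cbx2) and 4 lower (Ezh1, Rbbp7, Pcgf5 and Cbx7), in a background of 8.17% higher and 6.84% lower. The 2 of 33 higher are thus near the background share, and the 4 of 33 lower somewhat above it. The median day 8 difference was 0.04 over the 33 genes and 0.03 over all genes. The summed level of the 33 genes was highest at day 1, and days 5 and 8 overlapped, at 969 to 1049 relative RPM over the 4 libraries of day 1, 686 to 750 over those of day 5 and 618 to 691 over those of day 8.

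**Figure D1:**
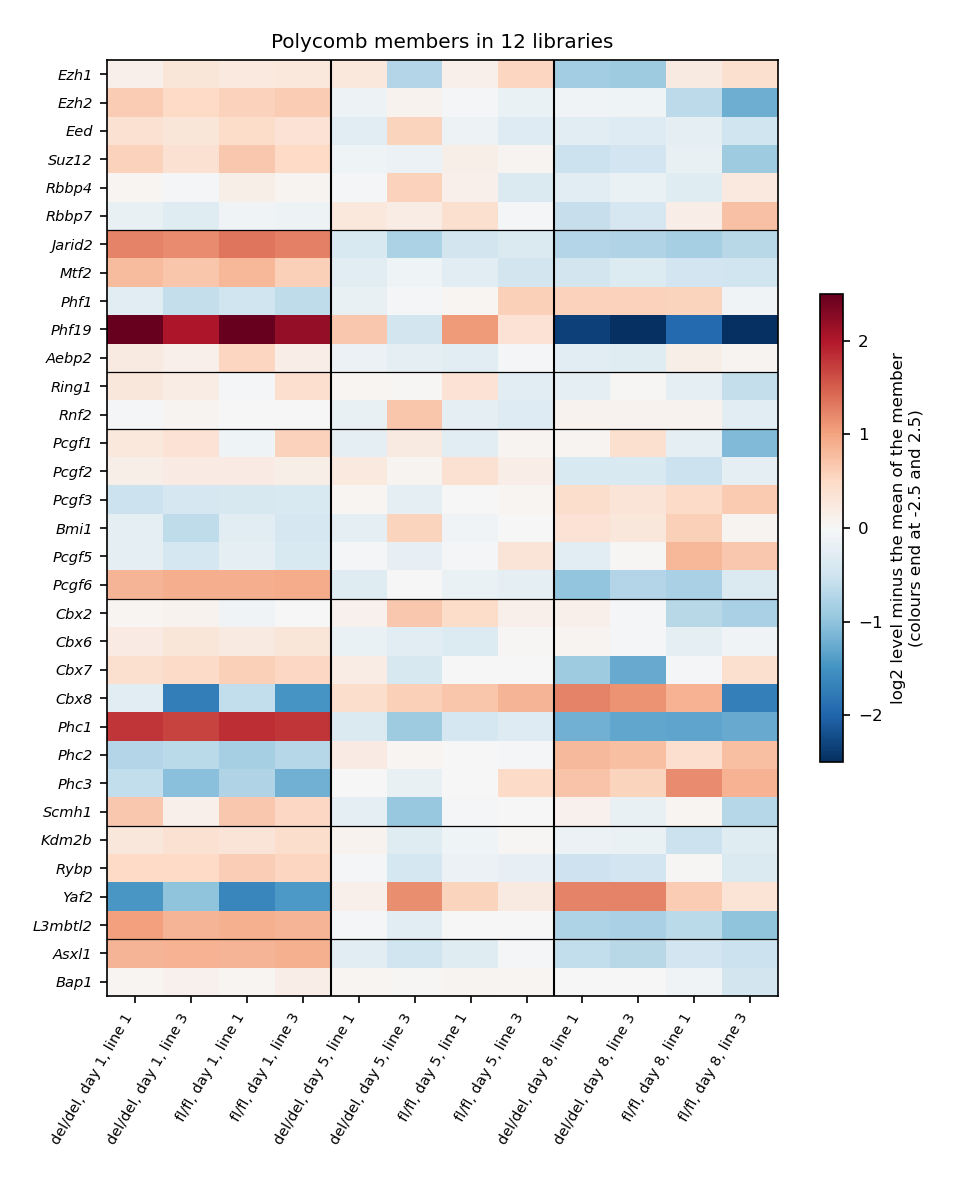
Log2 relative level of each Polycomb gene minus its own mean over the 12 libraries (colour, ends at ±2.5), with genes in rows ordered by role and libraries in columns ordered by day, del/del left of fl/fl. Phc1 and Jarid2 are above their means at day 1 and below them at days 5 and 8, Yaf2 is the opposite, Phf19 is below its mean in all day 8 libraries, and Cbx7, Rbbp7 and Ezh2 part the genotypes at day 8.

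Among the genes that parted the genotypes at day 8 were both PRC2 methyltransferases, the alternative catalytic subunits Ezh2, prominent in dividing and embryonic cells, and Ezh1, prominent in resting and differentiated cells. At day 8 Ezh2 was higher and Ezh1 lower in del/del cells. Both genes lie on the minus strand, Ezh2 at chr6:47530274-47595341 and Ezh1 at chr11:101191115-101226463 (mm10, their span in the deposited table). Their promoter windows (RefSeq, GRCm38.p6, minus strand, 300 bases ending 50 bases past the start) are printed because the pair diverged at day 8. Also printed are those of Suz12 (plus strand) and Phf19 (minus strand), which fell up to day 5 in del/del cells. Besides that of Ezh2, theirs are the only Polycomb windows that hold a word listed below. The printed windows are thus no sample of the genes that fell or diverged. Capitals mark any of the words TTTCCCGC, TTTGGCGC, TTTCGCGC or TTTGCCGC, the forms of the motif of the E2F factors that drive genes of the cell cycle, searched on both strands.
Ezh2 (chr6:47594981-47595280): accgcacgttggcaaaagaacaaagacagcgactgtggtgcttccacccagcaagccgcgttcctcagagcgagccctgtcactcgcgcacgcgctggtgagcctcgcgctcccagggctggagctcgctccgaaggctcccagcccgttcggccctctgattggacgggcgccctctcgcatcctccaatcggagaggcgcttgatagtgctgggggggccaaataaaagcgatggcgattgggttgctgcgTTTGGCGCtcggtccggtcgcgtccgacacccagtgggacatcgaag
Ezh1 (chr11:101226414-101226713): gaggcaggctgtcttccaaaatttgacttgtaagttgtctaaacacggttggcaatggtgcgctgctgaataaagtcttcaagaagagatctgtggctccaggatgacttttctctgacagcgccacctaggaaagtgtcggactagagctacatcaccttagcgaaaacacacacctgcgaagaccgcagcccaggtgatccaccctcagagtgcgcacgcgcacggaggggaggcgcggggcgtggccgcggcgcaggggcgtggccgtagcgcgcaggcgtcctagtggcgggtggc
Suz12 (chr11:79992856-79993155): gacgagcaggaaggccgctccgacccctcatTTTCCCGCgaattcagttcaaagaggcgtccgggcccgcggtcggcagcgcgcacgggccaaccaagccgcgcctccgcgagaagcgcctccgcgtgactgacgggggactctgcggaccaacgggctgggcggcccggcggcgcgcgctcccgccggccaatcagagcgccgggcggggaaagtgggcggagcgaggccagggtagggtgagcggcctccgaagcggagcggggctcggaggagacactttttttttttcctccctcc
Phf19 (chr2:34913927-34914226): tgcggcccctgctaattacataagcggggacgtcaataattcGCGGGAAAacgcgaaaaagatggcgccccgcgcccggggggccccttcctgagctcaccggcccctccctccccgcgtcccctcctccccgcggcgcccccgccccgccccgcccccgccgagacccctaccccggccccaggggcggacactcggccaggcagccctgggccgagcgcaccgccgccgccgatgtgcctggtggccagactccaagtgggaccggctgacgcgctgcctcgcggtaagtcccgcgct
Of the 33 genes, 29 had a promoter in the RefSeq table, with 41 windows, and 3 windows held such a word (7.32%): those of Ezh2, Suz12 and Phf19. Over all genes it was found in 744 of 32851 windows (2.26%). The windows of the Polycomb genes were also richer in CpG, with a median of 24 CpG and 64.3% G or C, versus 7 and 52.7% over all windows. A match is a description of the sequence and says nothing of binding.

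Ezh2 had 48.5 and 44.2 relative RPM in del/del versus 46.3 and 48.1 in fl/fl cells (day 1), and 28.5 and 33.2 versus 30.2 and 27.7 at day 5. By day 8 it had 29.5 and 28.9 in del/del versus 19.9 and 13.3 in fl/fl cells. Both lines were therefore higher without Smchd1 at day 8, and the genotypes overlapped at the earlier days. The day 8 difference was 0.84 ± 0.18 (1.79-fold, adjusted p = 0.0167), at 0.57 in line 1 and 1.12 in line 3. Ezh2 fell between day 1 and day 5 in both genotypes, by 0.59 (adjusted p = 0.0204) in del/del and 0.71 (0.0081) in fl/fl cells. Between day 5 and day 8 it fell further in fl/fl cells, by 0.83 (0.0224), whereas the del/del difference was -0.08 (0.817). The comparisons of genotypes at day 8 and of days within a genotype share the day 8 libraries.

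Ezh1 was scarcer, with 8.40 and 9.51 relative RPM in del/del versus 9.21 and 9.23 in fl/fl cells at day 1. At day 5 it had 9.32 and 4.68 in del/del versus 8.41 and 11.3 in fl/fl cells, with the del/del library of line 3 apart from the other 3. At day 8 it had 4.23 and 4.19 in del/del versus 9.10 and 10.2 in fl/fl cells, with no overlap. The day 8 difference was -1.19 ± 0.29 (2.29-fold lower, adjusted p = 0.0249; -0.33 and 0.596 on the deposited scale), at -1.11 in line 1 and -1.28 in line 3. Per kb of exon, Ezh1 made up 11.4 and 11.5% of the summed Ezh1 and Ezh2 level in del/del cells at day 8, versus 29.1 and 40.7% in fl/fl cells. At day 1 this share was 13.5 and 16.2% versus 15.1 and 14.7%, and at day 5 it was 22.7 and 11.2% versus 20.01 and 26.8%, with overlap at both days.

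Eed and Suz12, the scaffold subunits that every PRC2 needs, had no called difference between genotypes at any day. Eed had 43.8 and 41.7 relative RPM in del/del versus 46.2 and 43.0 in fl/fl cells (day 1), 27.5 and 49.7 versus 30.9 and 27.03 (day 5), and 27.4 and 26.8 versus 28.4 and 23.9 (day 8). The line 3 del/del library of day 5 stood well above the other 7 libraries of days 5 and 8. Eed fell between day 1 and day 5 in fl/fl cells, by 0.63 ± 0.22 (adjusted p = 0.0439); with the line as a block its adjusted p was 0.0592, and it ranged from 0.00122 to 0.199 over the alternatives. In del/del cells the difference was -0.21 (0.485). Suz12 had 66.2 and 57.5 relative RPM in del/del versus 70.0 and 62.7 in fl/fl cells (day 1), 41.2 and 39.7 versus 48.7 and 46.0 (day 5), and 30.3 and 31.6 versus 38.9 and 23.9 (day 8). Its levels thus stepped down with each day. The genotypes overlapped at days 1 and 8, and at day 5 both del/del libraries lay below both fl/fl libraries. Between day 1 and day 5 it fell by 0.61 ± 0.19 in del/del cells (adjusted p = 0.0263), while the fl/fl difference was -0.48 (0.0636). With the line as a block the fl/fl difference was called at 0.0481, within 0.00441 to 0.266 over the alternatives.

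Rbbp4 and Rbbp7 are histone-binding proteins that PRC2 shares with other chromatin complexes. Rbbp7 had 51.2 and 46.9 relative RPM in del/del versus 54.4 and 52.8 in fl/fl cells (day 1), and 69.3 and 65.7 versus 76.7 and 56.0 at day 5. By day 8 it had 38.8 and 43.4 in del/del versus 64.6 and 96.5 in fl/fl cells. It was lower in both lines without Smchd1, by 0.94 ± 0.19 (1.92-fold, adjusted p = 0.0163; -0.08 and 0.836 on the deposited scale), with -0.73 in line 1 and -1.15 in line 3. Rbbp7 is X-linked (chrX:162760402-162779092, plus strand), where the median difference of line 1 minus line 3 lay between -0.09 and 0.11 over 459 X-linked genes in the 6 groups, and between -0.02 and 0.05 over 12703 autosomal genes. Between day 5 and day 8 Rbbp7 fell in del/del cells by 0.72 (adjusted p = 0.036; 0.053 with the line as a block, range 0.00896 to 0.959), while the fl/fl difference was 0.27 (0.414). Rbbp4, which shares 18% of its exon length with Sync, ranged from 61.4 to 117 relative RPM over the 12 libraries and was called in no comparison.

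**Figure D2:**
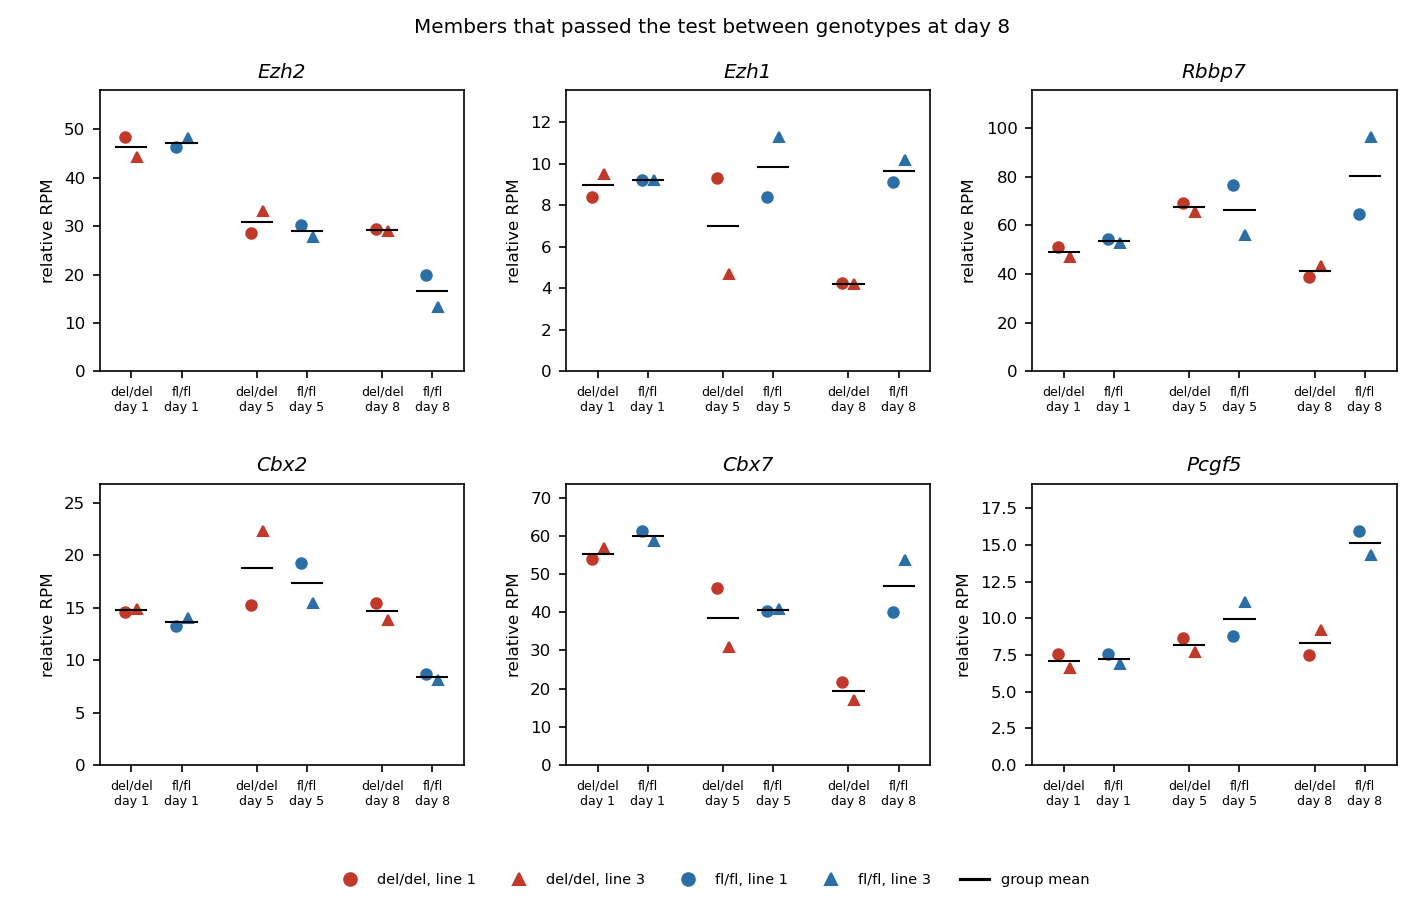
Relative RPM of the 6 Polycomb genes called between genotypes at day 8, by day (x axis), with del/del left of fl/fl and circles for line 1, triangles for line 3. On this scale Ezh2 and Cbx2 lie higher, and Ezh1, Rbbp7, Cbx7 and Pcgf5 lower, in both del/del libraries than in both fl/fl libraries at day 8. On the deposited scale Ezh1, Rbbp7, Cbx7 and Pcgf5 were not called, and Pcgf5 differed by 0.002.

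Of the accessory proteins, which guide PRC2 to CpG-rich DNA and tune its activity, Jarid2, Mtf2 and Phf19 fell up to day 5 in both genotypes, while Aebp2 fell and Phf1 rose in fl/fl cells. The summed level of the 5 was 185.8 to 214.3 relative RPM over the libraries of day 1, 82.0 to 88.9 over those of day 5 and 76.1 to 81.2 over those of day 8. Jarid2, which bridges PRC2 to its targets in ES cells, had 97.6 and 93.9 relative RPM in del/del versus 104 and 99.5 in fl/fl cells (day 1), 32.0 and 24.0 versus 30.4 and 32.1 (day 5), and 25.0 and 24.7 versus 23.2 and 25.8 (day 8). All 4 day 1 libraries thus stood far above all 8 later ones. It fell by 1.79 ± 0.14 in del/del (3.45-fold, adjusted p = 8.4e-06) and by 1.71 in fl/fl cells (3.26-fold, 1.12e-05), and both calls were kept under all 23 alternatives. Mtf2, a Polycomb-like protein that binds CpG-rich DNA, ranged from 50.9 to 59.4 relative RPM at day 1 and from 23.7 to 31.2 at days 5 and 8. It fell by 0.93 (0.000331) in del/del and 1.07 (0.000134) in fl/fl cells, also under all alternatives.

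Phf19, a second Polycomb-like protein, nearly disappeared. It had 11.2 and 7.23 relative RPM in del/del versus 10.6 and 8.24 in fl/fl cells (day 1), 2.84 and 1.30 versus 3.73 and 2.30 (day 5), and 0.352 and 0.101 versus 0.465 and 0.283 (day 8). The day 8 values rest on 15 and 4 reads in del/del and 14 and 2 reads in fl/fl libraries. Between day 5 and day 8 it fell by 3.35 in del/del (10.2-fold, adjusted p = 0.00651) and by 3.01 in fl/fl cells (8.08-fold, 0.0188). Between day 1 and day 5 it fell by 2.23 ± 0.60 (0.0131) in del/del and 1.67 (0.046) in fl/fl cells. These calls rest on few reads: without the line 3 del/del library of day 8 the del/del fall between day 5 and day 8 had an adjusted p of 0.0593. As a share of the summed per-kb level of Mtf2, Phf1 and Phf19, Phf19 held 12.5 to 17.0% at day 1 and 0.334 to 1.64% at day 8.

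Phf1, the remaining Polycomb-like protein, moved the other way, to 16.9 to 23.8% of that sum at day 8 versus 4.93 to 5.77% at day 1. Its level was 2.04 to 2.65 relative RPM over the 4 libraries of day 1 and 2.80 to 4.81 at days 5 and 8. It rose between day 1 and day 5 in fl/fl cells by 0.89 ± 0.31 (adjusted p = 0.0383), with 0.32 (0.435) in del/del cells. Of its exon length 39.3% overlaps Cuta on the opposite strand, and the sources used here do not say whether reads were counted by strand. Aebp2, a zinc-finger cofactor, ranged from 21.01 to 37.6 relative RPM over all libraries and fell between day 1 and day 5 in fl/fl cells by 0.51 (0.0163), with -0.36 (0.0719) in del/del cells.

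The ubiquitin ligases of PRC1 had no called change with day or genotype. Rnf2, the main ligase of ES cells, had 25.9 and 27.7 relative RPM in del/del versus 26.7 and 26.7 in fl/fl cells (day 1), 23.2 and 42.9 versus 22.5 and 21.1 (day 5), and 28.1 and 28.0 versus 28.3 and 21.8 (day 8). The line 3 del/del library of day 5 was again the one apart, and the day 5 difference was 0.53 ± 0.24 (adjusted p = 0.597). Ring1 had 5.73 and 5.33 relative RPM in del/del versus 4.59 and 6.31 in fl/fl cells (day 1), 4.82 and 4.78 versus 6.03 and 3.88 (day 5), and 3.95 and 4.80 versus 4.02 and 3.12 (day 8). Its genotypes overlapped at every day. Rnf2 made up 74.6 to 87.6% of the summed per-kb level of both ligases in every library.

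Among the PCGF subunits, Pcgf6 fell, Pcgf3 rose and Pcgf5 parted the genotypes at day 8. Pcgf6, of the variant complex that silences germline genes in ES cells, had 25.7 and 26.8 relative RPM in del/del versus 26.8 and 27.03 in fl/fl cells (day 1), 11.6 and 14.2 versus 12.7 and 12.3 (day 5), and 7.19 and 8.56 versus 8.17 and 11.05 (day 8). Every day 5 and day 8 library lay below every day 1 library. It fell by 1.03 ± 0.18 in del/del (adjusted p = 0.00115) and 1.11 in fl/fl cells (0.00072) between day 1 and day 5, and these calls were kept under all 23 alternatives. Between day 5 and day 8 it fell by 0.71 (0.0277) in del/del cells and differed by -0.39 (0.2) in fl/fl cells.

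Pcgf3, with Pcgf5 a subunit of the variant complexes tied to X inactivation, had 15.99 and 17.3 relative RPM in del/del versus 17.7 and 18.0 in fl/fl cells (day 1), 24.1 and 19.9 versus 23.0 and 24.1 (day 5), and 31.5 and 29.1 versus 32.6 and 36.5 (day 8). The days did not overlap. It rose by 0.40 ± 0.14 in del/del (adjusted p = 0.0402; -0.50 on the deposited scale) and 0.40 in fl/fl cells (0.0369) up to day 5, and by 0.47 (0.0488) in del/del and 0.55 (0.0392) in fl/fl cells from day 5 to day 8. These calls lie near the threshold. With the line as a block the adjusted p was 0.0535 for the first del/del step (range 0.0131 to 0.298), 0.0674 for the second (0.0219 to 0.232) and 0.0557 for the second fl/fl step (0.0152 to 0.993). At day 8 the genotypes differed by -0.19 (0.343).

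Pcgf5 (chr19:36379067-36456192, plus strand) had 7.56 and 6.63 relative RPM in del/del versus 7.56 and 6.89 in fl/fl cells (day 1), and 8.63 and 7.72 versus 8.82 and 11.1 at day 5. At day 8 it had 7.49 and 9.19 in del/del versus 15.97 and 14.3 in fl/fl cells, so both lines lay lower without Smchd1. The difference was -0.87 ± 0.19 (1.82-fold lower, adjusted p = 0.0197; 0.002 on the deposited scale), at -1.09 in line 1 and -0.64 in line 3. From day 5 to day 8 the fl/fl difference was 0.61 (0.079) and the del/del difference 0.02. Pcgf5 made up 5.13 and 6.10% of the summed per-kb PCGF level in del/del cells at day 8, versus 10.3 and 9.02% in fl/fl cells.

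Pcgf2, which with Bmi1 builds canonical PRC1, had 14.0 and 14.5 relative RPM in del/del versus 14.6 and 13.9 in fl/fl cells (day 1), 14.9 and 13.3 versus 16.5 and 14.2 (day 5), and 9.75 and 9.75 versus 8.70 and 10.9 (day 8). All day 8 libraries lay below all earlier ones in both genotypes. The step from day 5 to day 8 was called in fl/fl cells, at -0.65 ± 0.16 (adjusted p = 0.0392; 0.0554 with the line as a block, range 0.023 to 0.256), and was -0.53 (0.0573) in del/del cells. Bmi1 ranged from 4.18 to 9.73 relative RPM and Pcgf1, the PCGF subunit of the Kdm2b complex, from 0.992 to 3.20. Neither was called; at day 8 Pcgf1 differed by 0.90 ± 0.39 (0.129), on 96 and 111 del/del reads versus 55 and 7 fl/fl reads. In shares of the per-kb PCGF level, Pcgf6 held 35.7 to 36.8% over the libraries of day 1 and 12.4 to 17.5% at day 8, and Pcgf3 held 11.7 to 12.8% and 25.5 to 30.5%.

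In canonical PRC1 the genotypes parted in the CBX readers. Cbx7, the main CBX protein of ES cells, was lower and Cbx2, which compacts chromatin and is used more in differentiating cells, was higher in del/del cells at day 8. Cbx7 (chr15:79915807-79971119, minus strand) had 53.9 and 56.7 relative RPM in del/del versus 61.4 and 58.7 in fl/fl cells (day 1), and 46.3 and 30.8 versus 40.4 and 40.9 at day 5. At day 8 it had 21.9 and 16.9 in del/del versus 40.0 and 53.8 in fl/fl cells, with no overlap. The difference was -1.27 ± 0.20 (2.41-fold lower, adjusted p = 0.00809; -0.40 and 0.364 on the deposited scale), at -0.87 in line 1 and -1.67 in line 3. Up to day 5 Cbx7 fell by 0.56 in fl/fl cells (0.0467; 0.0581 with the line as a block, range 0.00311 to 0.178) and differed by -0.55 (0.0524) in del/del cells. From day 5 to day 8 it fell by 0.97 (0.0132) in del/del cells, while the fl/fl difference was 0.19 (0.594).

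Cbx2 (chr11:119022962-119031270, plus strand) had 14.6 and 14.9 relative RPM in del/del versus 13.2 and 14.0 in fl/fl cells (day 1), and 15.2 and 22.3 versus 19.2 and 15.4 at day 5. By day 8 it had 15.4 and 13.8 in del/del versus 8.70 and 8.08 in fl/fl cells. The del/del libraries thus stayed near their day 1 level while both fl/fl libraries lay below theirs. The day 8 difference was 0.80 ± 0.19 (1.74-fold higher, adjusted p = 0.0249), at 0.83 in line 1 and 0.78 in line 3. From day 5 to day 8 Cbx2 fell by 1.04 in fl/fl cells (2.06-fold, 0.0137), and the del/del difference was -0.33 (0.282). Among Cbx2, Cbx6, Cbx7 and Cbx8, Cbx7 held 34.7 and 31.2% of the per-kb level in del/del cells at day 8, versus 59.5 and 69.4% in fl/fl cells. Cbx2 held 37.3 and 38.8% versus 19.7 and 15.9%. At day 1 Cbx7 held 59.1 to 63.7% in all 4 libraries.

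Cbx6 ranged from 14.6 to 22.7 relative RPM over all libraries. Up to day 5 it fell by 0.47 ± 0.15 in del/del (adjusted p = 0.0297) and by 0.42 in fl/fl cells (0.0468; 0.0544 with the line as a block, range 0.00889 to 0.314). Cbx8 was the scarcest CBX gene, at 0.420 to 3.29 relative RPM on 3 to 140 reads, and was called in no comparison. At day 8 its difference was 1.60 ± 0.73 (0.149). With the line as a block its step up to day 5 in fl/fl cells, 1.82, had an adjusted p of 0.0468, and its adjusted p over the alternatives ranged from 0.0108 to 0.293.

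The Polyhomeotic subunits, whose SAM domains join PRC1 into larger assemblies, exchanged their shares over the days. Phc1 had 103 and 96.6 relative RPM in del/del versus 107 and 103 in fl/fl cells (day 1), 23.5 and 16.3 versus 22.2 and 24.0 (day 5), and 13.04 and 12.3 versus 12.05 and 12.5 (day 8). Every day lay below the one before it, and the genotypes overlapped or nearly met at each. Its fall up to day 5 had the smallest p among the 33 genes in both genotypes, at 2.35 ± 0.16 in del/del (5.1-fold, adjusted p = 3.74e-06) and 2.19 in fl/fl cells (4.56-fold, 6.83e-06). It fell again from day 5 to day 8, by 0.63 (0.0296; 0.07 on the deposited scale) in del/del and 0.91 (0.011) in fl/fl cells.

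Phc2 rose as Phc1 fell. It had 16.4 and 17.3 relative RPM in del/del versus 15.4 and 16.7 in fl/fl cells (day 1), 31.7 and 28.3 versus 27.7 and 26.7 (day 5), and 48.4 and 46.5 versus 37.0 and 46.3 (day 8). Each day lay above the one before it. The rise up to day 5 was 0.83 ± 0.14 in del/del (adjusted p = 0.000873; -0.07 on the deposited scale) and 0.76 in fl/fl cells (0.00141), and from day 5 to day 8 it was 0.66 (0.0127) in del/del and 0.61 (0.0295) in fl/fl cells. Phc3, the scarcest of the group per kb, had 3.16 and 2.34 relative RPM in del/del versus 2.88 and 2.09 in fl/fl cells (day 1), 4.86 and 4.24 versus 4.81 and 6.71 (day 5), and 7.96 and 7.12 versus 10.9 and 8.78 (day 8). It rose up to day 5 in fl/fl cells by 1.21 ± 0.27 (0.00489), with 0.74 (0.0508) in del/del cells. Phc1 thus held 87.6 to 89.6% of the per-kb level of the 3 genes at day 1 and 24.9 to 28.0% at day 8, when Phc2 held 64.4 to 70.7%. Scmh1, a further SAM-domain protein, ranged from 4.19 to 12.96 relative RPM and fell up to day 5 in del/del cells by 1.00 ± 0.30 (0.0226), with -0.62 (0.128) in fl/fl cells.

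**Figure D3:**
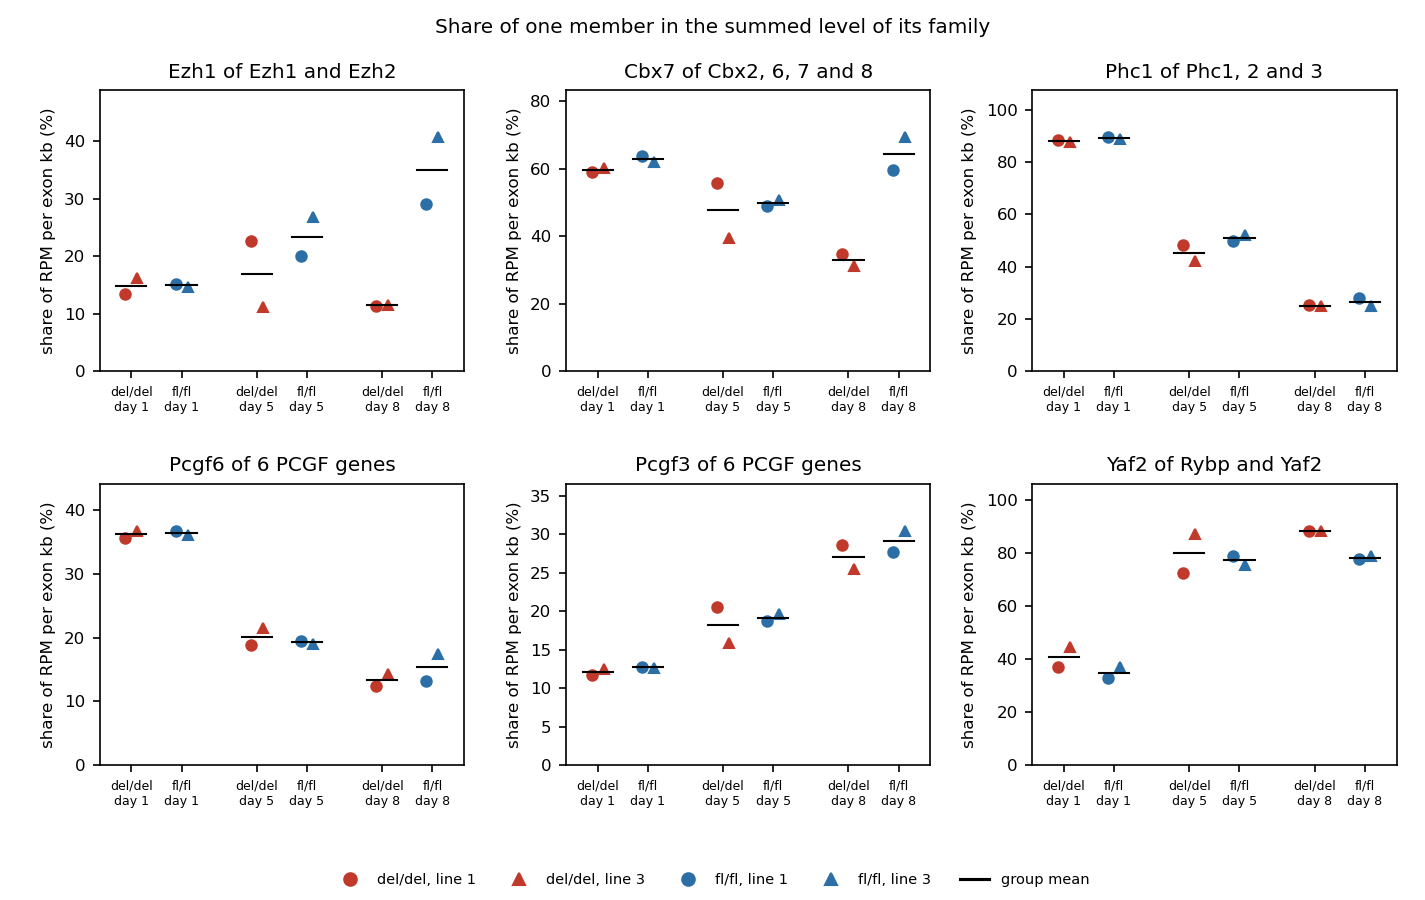
Share (%) of each of 6 genes in the summed RPM per kb of exon of its family, by day, with del/del left of fl/fl and both lines drawn. Shares do not depend on the scaling of a library; those of Phc1 and Pcgf6 are lower and those of Pcgf3 and Yaf2 higher at day 8 than at day 1, while the Ezh1 and Cbx7 shares separate del/del from fl/fl libraries at day 8.

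Of the variant PRC1 subunits, Rybp fell and its paralog Yaf2 rose, each an adaptor that takes the place of a CBX protein. Yaf2 had 2.47 and 3.36 relative RPM in del/del versus 2.20 and 2.51 in fl/fl cells (day 1), 7.46 and 15.2 versus 9.94 and 7.98 (day 5), and 15.9 and 16.1 versus 10.5 and 8.64 (day 8). All later libraries lay above all day 1 libraries. It rose up to day 5 by 1.88 ± 0.31 in del/del (adjusted p = 0.000805) and 1.92 in fl/fl cells (0.000701). At day 8 both del/del libraries lay above both fl/fl libraries, with a difference of 0.75 that was not called (0.116). Rybp ranged from 5.19 to 11.4 relative RPM and fell up to day 5 by 0.75 ± 0.20 (0.0129) in del/del and 0.75 (0.0122) in fl/fl cells. Yaf2 held 32.9 to 44.8% of the per-kb level of the pair at day 1. At day 8 it held 88.6 and 88.4% in del/del cells, versus 77.8 and 79.0% in fl/fl cells.

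L3mbtl2, the MBT-domain protein of the Pcgf6 complex, had 59.5 and 52.8 relative RPM in del/del versus 54.5 and 53.0 in fl/fl cells (day 1), 28.5 and 24.2 versus 28.9 and 29.2 (day 5), and 17.1 and 16.6 versus 18.3 and 14.6 (day 8). It stepped down at each day, in both genotypes. It fell up to day 5 by 1.10 ± 0.14 in del/del (adjusted p = 0.000199) and 0.89 in fl/fl cells (0.00074), and then by 0.64 (0.0177; 0.06 on the deposited scale) in del/del and 0.83 (0.0105) in fl/fl cells. Of its exon length 17.2% overlaps Chadl. Kdm2b, which brings the Pcgf1 complex to unmethylated CpG islands, ranged from 16.5 to 32.4 relative RPM. It fell up to day 5 in del/del cells by 0.44 ± 0.15 (0.0422; 0.0553 with the line as a block, range 0.00841 to 0.215), with -0.42 (0.0522) in fl/fl cells.

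In PR-DUB, which removes the ubiquitin that PRC1 adds, the partner Asxl1 fell while no change was called in the catalytic subunit Bap1. Asxl1 had 44.7 and 45.2 relative RPM in del/del versus 44.9 and 46.0 in fl/fl cells (day 1), 20.6 and 17.6 versus 20.1 and 23.9 (day 5), and 16.3 and 15.4 versus 17.8 and 17.1 (day 8). Every later library lay far below every day 1 library. The fall up to day 5 was 1.24 ± 0.13 in del/del (adjusted p = 5.74e-05) and 1.05 in fl/fl cells (0.000157), and both were kept under all 23 alternatives. From day 5 to day 8 the differences were -0.27 and -0.33, with no call. Bap1 ranged from 26.6 to 40.7 relative RPM over all libraries, and at day 8 it differed by 0.26 (0.186).

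The falls and rises up to day 5 were shared in part between genotypes. The genotypes have no libraries in common here, but they are parts of the same ES lines and share the estimate of the spread. The overlap over all genes is not given, so the counts of shared genes have no background. Of the 13 genes that fell in each genotype, 10 were the same: Asxl1, Cbx6, Ezh2, Jarid2, L3mbtl2, Mtf2, Pcgf6, Phc1, Phf19 and Rybp. Kdm2b, Scmh1 and Suz12 were called in del/del cells alone, and Aebp2, Cbx7 and Eed in fl/fl cells alone. All 3 that rose in del/del cells (Pcgf3, Phc2 and Yaf2) were among the 5 that rose in fl/fl cells, which also held Phc3 and Phf1. No gene had a called difference of these steps between genotypes, in a background of 0% over all genes, so a call in one genotype alone is not shown to be particular to it. From day 5 to day 8, Pcgf3 and Phc2 rose and L3mbtl2, Phc1 and Phf19 fell in both genotypes. Cbx7, Pcgf6 and Rbbp7 fell in del/del cells alone, and Cbx2, Ezh2 and Pcgf2 in fl/fl cells alone. The steps up to day 5 and from day 5 share the day 5 libraries.

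How firmly these steps held differed between genes. Each step compares 4 libraries, so leaving out any of the other 8 leaves its difference unchanged. Such a fit alters the shared estimate of the spread and the adjusted p alone. When each of the 12 libraries was left out in turn, 8 of 16 calls up to day 5 in del/del cells and 8 of 18 in fl/fl cells held every time: Asxl1, Jarid2, L3mbtl2, Mtf2, Pcgf6, Phc1, Phc2 and Yaf2 in each. Of the rest in del/del cells, Phf19 and Scmh1 were called 10 times of 12, Ezh2 and Rybp 9, Suz12 8, Cbx6 7, and Pcgf3 and Kdm2b 3 times. Suz12 was lost without each of the 4 del/del libraries compared, and Ezh2 and Rybp without 3 of them. In fl/fl cells Ezh2, Aebp2 and Phc3 were called 10 times, Rybp 9, Phf19 and Cbx7 6, Phf1 and Cbx6 5, and Eed and Pcgf3 4 times. The count of called genes in del/del cells was smallest without the line 1 del/del library of day 1. In fl/fl cells it was smallest without the line 3 fl/fl library of day 1. The calls of these fits over all genes are not given, so this describes the fits and not Polycomb genes.

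None of the 8 calls from day 5 to day 8 in each genotype held every time, although here too only 4 of the 12 libraries enter each step. In del/del cells Phf19 was called 11 times of 12, Cbx7 and Phc2 10, L3mbtl2 9, Pcgf6 and Phc1 5, Rbbp7 4 and Pcgf3 3 times. In fl/fl cells Cbx2, Phc1 and L3mbtl2 were called 10 times, Ezh2 and Phf19 9, and Pcgf2, Pcgf3 and Phc2 3 times. In del/del cells fewest genes were called without the line 3 del/del library of day 8. In fl/fl cells fewest were called without the line 1 fl/fl library of day 5. The calls of these fits over all genes are not given, so this describes the fits and not Polycomb genes. Directions also depend on the scale, since on the deposited scale, which divides by reads outside genes too, the median gene itself moves by -0.88 in del/del and -0.42 in fl/fl cells up to day 5 and by 0.69 and -0.55 from day 5 to day 8. There 14.4% of all calls up to day 5 in del/del cells were rises, versus 52.9% on the relative scale. From day 5 to day 8 the share was 95.6% versus 61.6% in del/del cells and 13.6% versus 45.7% in fl/fl cells, where it was 31.4% with reads in genes as the denominator.

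The 6 differences between genotypes at day 8 rest on few libraries too. Without the shallow fl/fl library of line 3, Cbx7 alone was called, at -1.06 (limma, adjusted p = 0.0472). The others then were Ezh2 at 0.56 (0.0665), Rbbp7 at -0.65 (0.0781), Pcgf5 at -0.94 (0.0612), Cbx2 at 0.75 (0.105) and Ezh1 at -1.11 (0.113), each of unchanged direction. Cbx7 was also the one gene called without the line 1 del/del library of day 8. The 6 calls did not hold without the line 3 del/del library of day 8. Few of all genes were called in that fit. Their share is not given, so the loss is not read as particular to these 6 genes. Further genes were called without the line 1 fl/fl library of day 8, which leaves the shallow library alone in its group. The calls of that fit over all genes are not given. The adjusted p over all alternatives ranged from 0.0015 to 0.364 for Cbx7, 0.000586 to 0.133 for Ezh2, 0.00675 to 0.138 for Cbx2, 0.00383 to 0.596 for Ezh1, 0.00107 to 0.836 for Rbbp7 and 0.0109 to 0.997 for Pcgf5. The lower calls also depend on the scale: on the deposited scale, on which the median gene is 0.90 higher in del/del cells, Ezh2, Cbx2 and 6 further genes were called higher and none lower. There 97.9% of all calls were higher in del/del cells, versus 54.4% on the relative scale. With reads in genes as the denominator the share was 68.5%, and the same 6 genes were called as here.

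**Figure D4:**
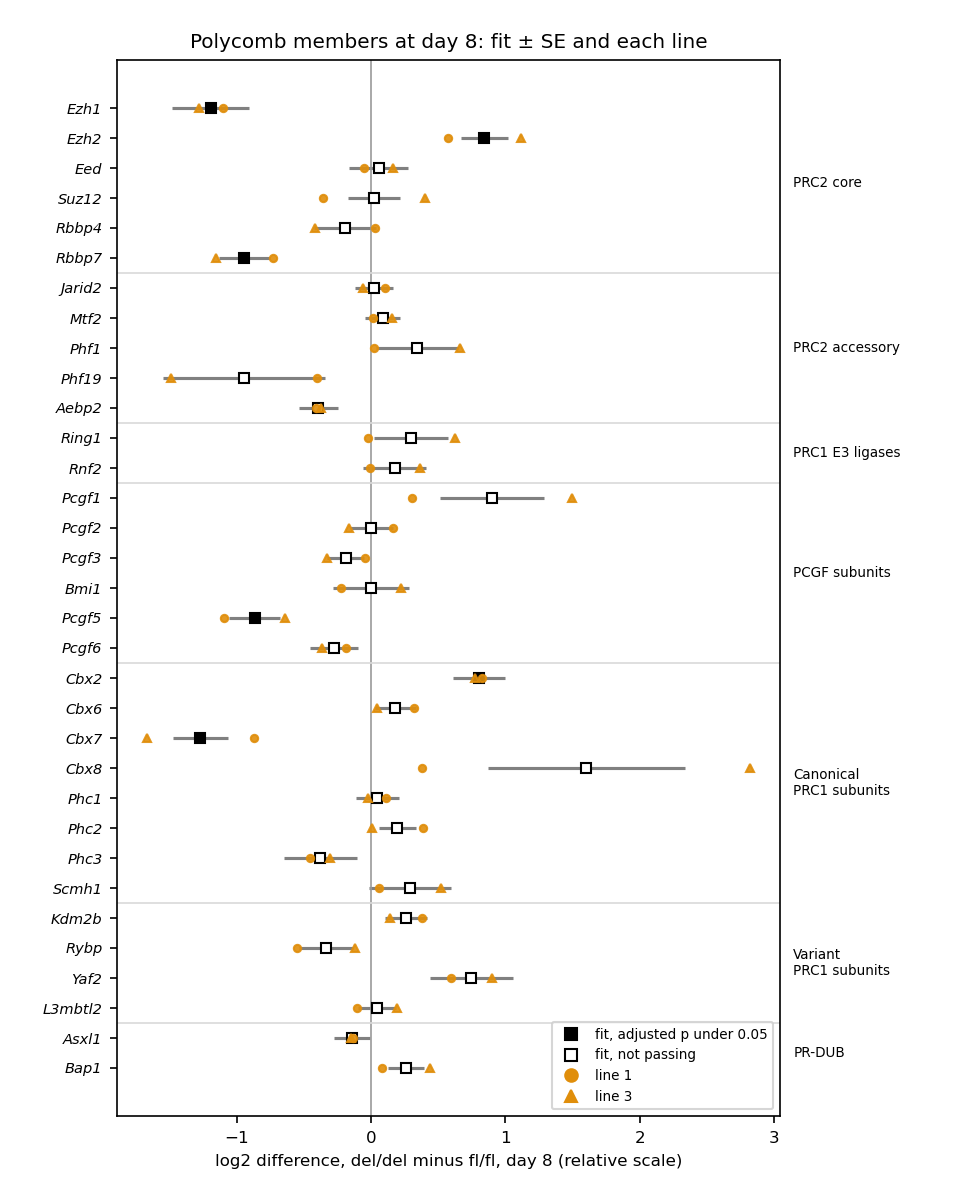
Log2 difference between del/del and fl/fl cells at day 8 for each of the 33 genes (fit ± SE), with line 1 (circles) and line 3 (triangles) drawn apart. On the relative scale Ezh2 and Cbx2 lie above 0 and Ezh1, Rbbp7, Pcgf5 and Cbx7 below it, with both lines on the same side. These 6 genes were called on these same libraries, so the shared side is no separate support. On the deposited scale Ezh1, Rbbp7, Pcgf5 (0.002) and Cbx7 were not called.

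At the earlier days the genotypes were close. At day 1 the differences of the 33 genes had a median of -0.03 (-0.003 over all genes). None had an unadjusted p under 0.05, versus 1.2% of all genes. At day 5 the median was -0.07 (-0.02 over all genes), and 1 gene, Rnf2, had an unadjusted p under 0.05, versus 7.72% of all genes. Neither day had a call by voom on the recovered reads. The day 5 result depends on 1 library. Leaving out the del/del library of line 1 leaves that of line 3 alone in its group. The differences then were 0.78 for Eed, 0.98 for Rnf2, -1.06 for Ezh1 and -0.50 for Phc1. These genes were picked by that fit, whose calls over all genes are not given. In Eed, Rnf2 and Ezh1 that line 3 library is the one that stood apart above.

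Averaged over the 3 days no Polycomb gene was called, in a background of 0.107% of all genes called. An unadjusted p under 0.05 was found for 8 of the 33 and for 24.4% of all genes, so the 8 are near that share. For the mean, genes were called without the line 1 del/del library of day 5 and without the line 1 fl/fl library of day 8. Both fits leave 1 library in a group, and their calls over all genes are not given, so these are not read as a Polycomb result. The change of the genotype difference between days was called for no Polycomb gene in any of the 3 pairs of days, and voom called none for these or for the mean. For day 8 against day 1, 0.0213% of all genes were called, and 17.2% had an unadjusted p under 0.05. Near that share, 6 of the 33 had one: Cbx7 at -1.15 (adjusted p = 0.131), Ezh2 at 0.87 (0.15), Pcgf5 at -0.84 (0.181), Rbbp7 at -0.81 (0.197), Ezh1 at -1.15 (0.21) and Cbx2 at 0.69 (0.248). For day 8 against day 5 the background was 0.00711% called and 13.7% with an unadjusted p under 0.05. Near the latter share, 4 of the 33 had one: Cbx7 at -1.16 (0.239), Rbbp7 at -0.99 (0.271), Ezh2 at 0.75 (0.325) and Cbx2 at 0.71 (0.349). For day 5 against day 1 none had one, versus 2.5% of all genes. The genotype difference at day 8 is therefore not shown to differ from that at the earlier days. Without the line 1 fl/fl library of day 8 the shallow library is alone in its group. There the change against day 1 was 1.16 for Ezh2, -1.10 for Rbbp7 and -1.365 for Cbx7. Against day 5 it was 1.04 for Ezh2, -1.275 for Rbbp7 and -1.38 for Cbx7. The calls of that fit over all genes are not given.

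Other features of the cultures moved with the genotype at day 8. Of 15 proliferation genes 4 were higher in del/del cells and none lower, with a list median of 0.62 and Mki67 at 0.98, Top2a at 1.01 and Aurkb at 1.52. Their summed level was 434.7 and 471.1 relative RPM in del/del versus 372.8 and 261.4 in fl/fl cells, with no overlap. Up to day 5, 9 of the 15 fell in del/del and 14 in fl/fl cells.

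Markers of extraembryonic cells were at lower summed levels in del/del cultures. Of 8 trophoblast markers 5 were lower at day 8, with sums of 139.3 and 99.1 relative RPM in del/del versus 234.8 and 617.9 in fl/fl cells, and Elf5 had no read in either del/del library. Of 8 extraembryonic endoderm markers 3 were lower, with sums of 386.1 and 519.9 versus 791.7 and 1184. Ttr had no read in either del/del library, but also none in 1 fl/fl library, so its absence does not separate the genotypes. Both sums were lower in both lines. Markers of other cell types were also called. Of 8 ES cell markers 2 were lower (Pou5f1 and Tfcp2l1), with sums of 53.5 and 44.7 in del/del versus 75.2 and 90.0 in fl/fl cells. Of 6 neuronal markers 1 was higher and 2 lower, with sums of 171.4 and 80.9 versus 262.4 and 562. Of 4 endothelial and blood markers 1 was lower, with sums of 8.11 and 3.81 versus 18.3 and 28.5. The counts are of tested markers, whereas the sums cover every listed gene in the deposited data, tested or not. These were 9 trophoblast, 10 extraembryonic endoderm, 7 neuronal, and 7 endothelial and blood genes.

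Fibroblast markers went the other way, with 2 of 8 higher and sums of 461.8 and 592.2 relative RPM in del/del versus 257.7 and 71.1 in fl/fl cells. Of 8 markers of the labelled cell type, neuromesodermal and caudal progenitors, Msgn1 alone was called, higher in del/del cells, with no read in 1 fl/fl library of day 8. Summed over all 9 genes of this list, tested or not, the level was 1.83 to 2.72 over the 4 libraries of day 1. It was 68.9 to 140.6 over those of day 5 and 22.2 to 30.9 over those of day 8. Wnt3a had no read at day 8 in either fl/fl library or in 1 del/del library. The part of these cell types in the day 8 differences of Ezh2, Ezh1, Rbbp7, Pcgf5, Cbx2 and Cbx7 was not tested.

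**Figure D5:**
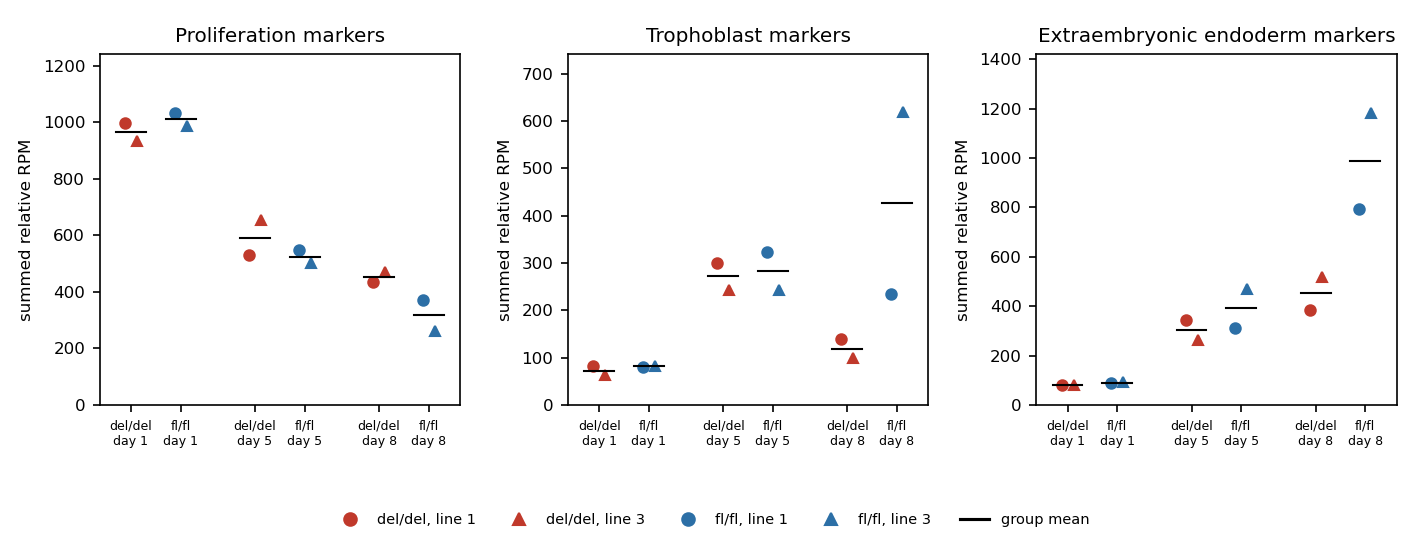
Summed relative RPM of the proliferation, trophoblast and extraembryonic endoderm marker lists in each library, by day, with del/del left of fl/fl. At day 8 the proliferation sums are 434.7 and 471.1 in del/del versus 372.8 and 261.4 in fl/fl cells, and both extraembryonic sums are lower in both del/del libraries.

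Genes that work with Polycomb but are not among the 33 were called between genotypes at day 8 in small numbers, to be read against the 8.17% of all genes called higher and 6.84% called lower. Of 25 other PRC1 partners none was higher and 3 were lower in del/del cells at day 8: Sfmbt2, an MBT-domain protein needed in mouse trophoblast, at -2.15 ± 0.28 (adjusted p = 0.00541), Usp7, a deubiquitinase of variant PRC1, at -0.66 (0.0152), and Yy1 at -0.48 (0.0457). Sfmbt2 had 17.1 and 11.1 relative RPM in del/del versus 61.9 and 60.1 in fl/fl cells at day 8. Of 4 other PRC2 partners Lcorl was higher at 1.25 (0.0489) and Epop, an elongin-binding cofactor, lower at -0.64 (0.0263). None of 9 partners of PR-DUB was called, and of 6 demethylases and methyltransferases that oppose Polycomb Kmt2a was lower at -0.61 (0.0465).

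Over the days these genes moved in both directions. Of the 25 other PRC1 partners 4 rose and 6 fell up to day 5 in del/del cells, where 20.9% of all genes rose and 18.7% fell. In fl/fl cells 7 rose and 5 fell, where 22.8% of all genes rose and 18.3% fell. These shares are close to the background. Bcorl1 rose by 2.05 in del/del and 2.35 in fl/fl cells. Mga, the DNA-binding protein of the Pcgf6 complex, fell by 1.10 and 0.85. Of the demethylases Kdm6b rose by 1.97 in del/del and 2.33 in fl/fl cells, and its X-linked relative Kdm6a fell by 1.28 and 1.01. Of the PR-DUB partners none rose and 3 fell in del/del cells, and 1 rose and 3 fell in fl/fl cells, Hcfc1 by 0.81 and 0.61. Epop fell from day 5 to day 8 by 1.27 in del/del and 0.88 in fl/fl cells.

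Levels can be set beside each other between genes only per length. Per kb of exon, Phc1 led the 33 genes at day 1, at 18.8 relative RPM per kb in del/del and 19.9 in fl/fl cells, followed by Rbbp7 at 16.9 and 18.4 and Suz12 at 12.5 and 13.4. Phc3 was lowest at 0.157 and 0.142. At day 8 Rbbp7 led with 14.1 in del/del and 27.7 in fl/fl cells. Next came Yaf2 (8.55), Rbbp4 (7.73) and Bap1 (7.72) in del/del cells, which lie close together, and Rbbp4 (8.98), Cbx7 (7.24) and Eed (6.84) in fl/fl cells. Phf19 was lowest at 0.045 and 0.0742. Reads of single Polycomb genes ran from 2 to 4370 per library, and 17 of the 33 genes had at least 100 reads in every library.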

How the data were processed

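RNA was measured in 12 libraries, 2 per group. The authors deposited log2 RPM (log2 of reads per M reads) for 25965 rows and 12 columns; bcl2fastq, TopHat2 2.0.12, edgeR and build mm10 are named per the submitters' processing notes, with no roles given. The deposited log2 values are whole multiples of 1 read per library, within 0.02 reads for 100% of genes, with 0 reads entered as 0.9; reads recovered this way were 1.51 to 8.67 M in genes (M is mega), of denominators of 14.9 to 34.0 M. The denominator includes reads outside genes (10.1 to 27.8% lay in genes), so each library was shifted by the median of its log ratios over 13164 genes with reads in all libraries. This relative scale assumes that the median gene does not change. No column was left unused.

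Genes with log2 RPM above 0 in at least 2 libraries were tested (14063). A model with 6 group means was fitted to all 12 libraries with limma 3.58.1 in R 4.3.3 (trend), with Benjamini-Hochberg adjustment at 0.05; the fit was tested on simulated data. The 33 members and all lists were chosen with earlier results of these data known. Values in every library are given for 9 genes set by role, for called genes of genotype comparisons and for up to 6 called genes with the largest change per time comparison. GENCODE M21 gave exon lengths for 87.4% of 25899 gene names, and promoters came from RefSeq.

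Alternatives were the deposited scale, reads in genes as the denominator, cyclic loess, removal of a read density trend, voom on the recovered reads, pseudocounts of 2 and 0.5, no filter, a filter of 10 reads in 6 libraries, array weights, the line as a block, and each library left out in turn. Same-numbered libraries come from the same ES line, so the numbers pair the samples; their deviations from the group means correlated at 0.135 between genotypes at day 1, -0.154 at day 5 and -0.111 at day 8. The libraries are 2 lines sampled once per group, so p-values measure the spread between these lines.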

Additional observations from a re-analysis of the deposited data

How the results depend on the processing

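The count of Polycomb genes called was within 1.5 times the main count under every alternative not named here, leave-one-out fits apart. On the deposited scale 8 genes were called up to day 5 in fl/fl cells (18 on the relative scale), and from day 5 to day 8, 2 in del/del and 1 in fl/fl cells (8 each). There the sign turned for Pcgf5 between genotypes at day 8 (0.002), for Pcgf3 (-0.50) and Phc2 (-0.068) up to day 5 in del/del cells, and for Phc1 (0.068) and L3mbtl2 (0.057) from day 5 to day 8 in del/del cells. These follow the shift of the median gene. Array weights gave 3 genes between genotypes at day 8 (6), 1 for the mean over days (0), and 5 in del/del and 2 in fl/fl cells from day 5 to day 8. Cyclic loess and removal of the read density trend each gave 5 for the del/del step. Except for the shift of the median gene, the cause was not tested.

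With 1 library left out, the count ranged from 0 to 4 between genotypes at day 5, 0 to 9 at day 8 and 0 to 8 for the mean over days. It ranged from 0 to 4 for the change of the genotype difference between day 8 and day 1 and 0 to 5 between day 8 and day 5. For the days it was 8 to 20 in del/del and 9 to 21 in fl/fl cells up to day 5, and 0 to 10 and 0 to 11 from day 5 to day 8. Where 1 library remains in a group it is assumed to vary like the others. The matching counts over all genes are not given, so these ranges describe the fits and not Polycomb genes. With the line as a replicate block the counts were 6 between genotypes at day 8, 14 in del/del and 17 in fl/fl cells up to day 5, and 6 in each from day 5 to day 8; calls other than those given with the results did not change. Over all genes the block called 1661 genes between genotypes at day 8 (2111 without it), 1 for the mean over days (15) and 0 at day 5, so that Smchd1 was not called there (1). Voom called 6, 19, 22, 9 and 7 Polycomb genes in the 5 comparisons with calls, in that order. Line 1 and line 3 alone have 1 library per group and no test, and were chosen after seeing the data. They moved 14 of 46 called differences by more than 1 SE and turned the sign of none. These 46 belong to the genes given with values in every library. The called differences of Mtf2, Cbx6, Scmh1, Kdm2b, Rybp, Phf1 and Aebp2 are not among them. Each fitted difference is the mean of both lines, so both move from it by the same amount. These differences were called on the same libraries, so the kept signs are no separate support. Depth limits Phf19 and Cbx8, with as few as 2 and 3 reads.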
